A study of Mus musculus with 13 samples.

Results

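Described here are 9 genes that remodel the extracellular matrix, in the pancreas of young, old and old-OSKM mice: the matrix metalloproteases Mmp2, Mmp3 and Mmp14, their tissue inhibitors Timp1, Timp2 and Timp3, and the lysyl oxidases Lox, Loxl1 and Loxl2, which crosslink collagen and elastin. They were chosen by name for these roles, with earlier results of these data known, and all 9 were found among the 23366 genes of the deposited expression table. The study asked whether a single cycle of the reprogramming factors OCT4, SOX2, KLF4 and MYC (OSKM) moves features of aged tissue toward those of young tissue, and RNA sequencing was done on 1 pancreas library per mouse. The young group held 4 females aged 13 weeks, the old group 5 females aged 55 weeks, and the old-OSKM group 4 females whose labels give 58 weeks. All 13 mice, controls included, carried a ubiquitous cassette of the 4 factors that doxycycline switches on. The paper reports that its expression is uneven: after doxycycline injection SOX2 was broad in acinar cells but not in other pancreatic cell types. Only the old-OSKM mice were given doxycycline, for 1 week, and then had 2 weeks of recovery. Because neither control group drank doxycycline, effects of the drug and of the factors cannot be told apart, and the 3 added weeks of age cannot be told apart from either. Values are log2 RPKM, where RPKM is reads scaled to transcript length and to all mapped reads of the library, so that a difference of 1 is a 2-fold difference.

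Metalloproteases cut collagens, laminins and other matrix proteins, and each is made as an inactive precursor. MMP14 sits in the cell membrane and, together with a TIMP2 molecule that acts as a bridge, activates the precursor of MMP2, so Timp2 is at once an inhibitor and a part of the activation of this protease. Lysyl oxidases work in the opposite sense, since they oxidise lysines in newly laid collagen and elastin and so allow the fibres to be bonded to each other. In the pancreas these genes are expressed mostly by stellate cells, fibroblasts and vascular cells, which lie between the acini that secrete digestive enzymes.

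The tissue was pancreas in every mouse by its acinar markers, which summed to 12493 to 13222 RPKM. Normalization gave every mouse nearly the same set of values, so sums of these top genes do not measure acinar content. The acinar factor Ptf1a was at 1.74 log2 RPKM in old-OSKM mouse 4 and at 2.47 to 3.14 in the other mice. By mean level, the 9 genes ranked between percentile 43.2 (Mmp3) and percentile 90.8 (Timp2) of all genes in the table. Timp2 had the highest mean over the 13 mice, 1.85 log2 RPKM, followed by Timp3 at 1.76, Mmp2 at 0.94, Mmp14 at 0.45, Loxl1 at 0.09, Loxl2 at -0.33, Lox at -0.85, Timp1 at -1.65 and Mmp3 at -1.77. Neighbours in this order differed in most mice: Timp3 exceeded Mmp2, and Mmp2 exceeded Mmp14, in 13 of 13 mice. Mmp14 exceeded Loxl1, Loxl2 exceeded Lox, and Lox exceeded Timp1 in 12 of 13 each, and Loxl1 exceeded Loxl2 in 10 of 13. Timp2 exceeded Timp3, and Timp1 exceeded Mmp3, in only 7 of 13, so neither pair held the same order over all mice. Timp2 lay above Timp3 in every young mouse and below it in every old mouse, and old-OSKM mice showed both orders. The library kit kept no record of strand. Timp1 lies inside Syn1 on the opposite strand, and Timp3 and Syn3 overlap in the same way, so reads of these genes may be shared. Syn1 had a mean of -1.63 log2 RPKM, about as low as Timp1, while Syn3, at -0.39, was well below Timp3.

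**Figure D1:**
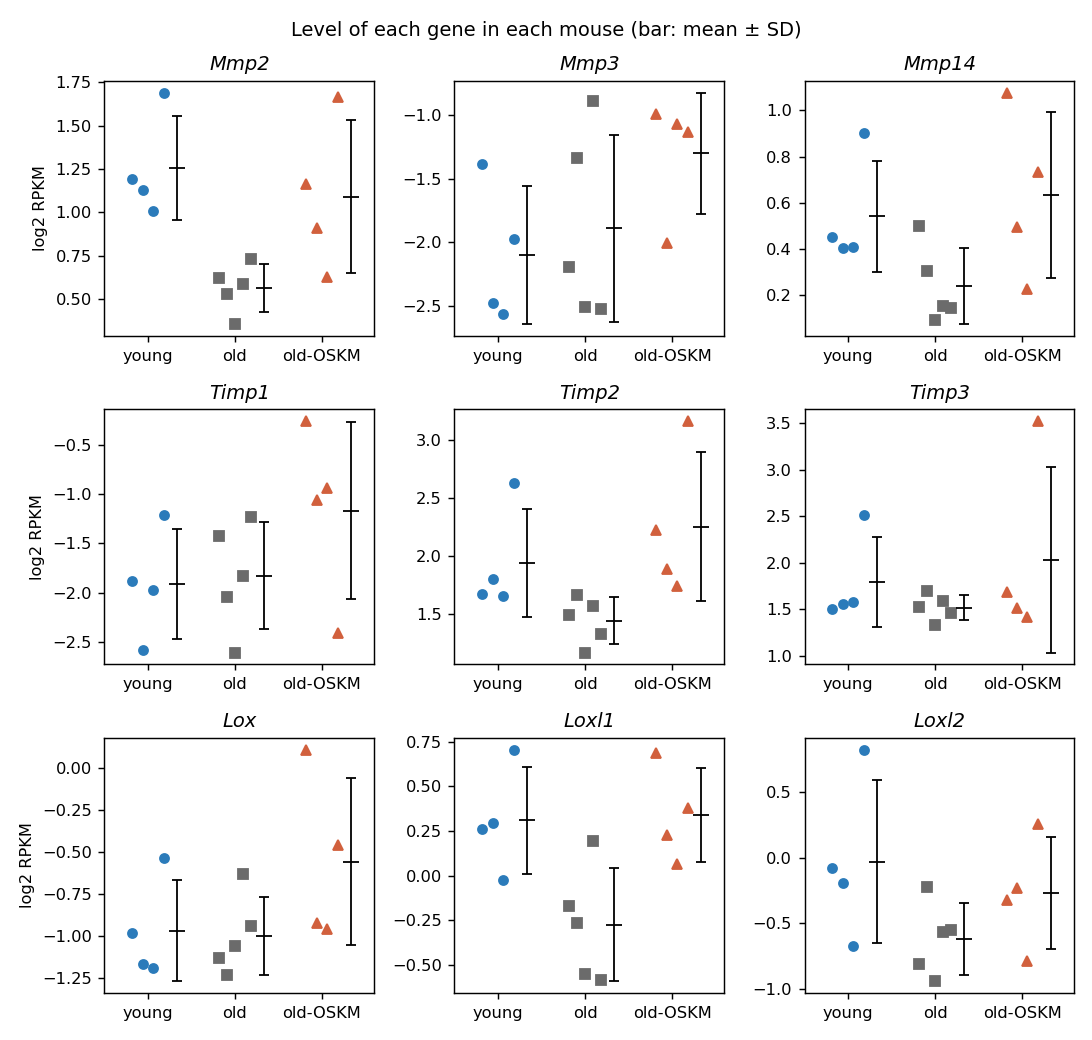
Level of each of the 9 genes (log2 RPKM, vertical axes differ between panels) in 4 young, 5 old and 4 old-OSKM mice, 1 point per mouse in order of mouse number, with the group mean and SD beside the points. The old values of Mmp2 lie between 0.35 and 0.73, all under the young values of 1.01 to 1.69, and young mouse 4 and old-OSKM mouse 4 lie at the top of the Timp2 and Timp3 panels.

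Some libraries stood apart. Over all genes, the mean correlation of old-OSKM mouse 4, young mouse 3 and old-OSKM mouse 1 with the other mice was 0.967, 0.969 and 0.970, compared with 0.978 to 0.981 for the remaining 10 mice. Summed over 11 markers of stellate cells and fibroblasts, old-OSKM mouse 4 had 125.4 RPKM and young mouse 4 had 89.6 RPKM, while the other young mice had 48.1 to 53.3, the other old-OSKM mice 45.6 to 67.0 and the old mice 35.4 to 45.0. Macrophage markers were highest in old-OSKM mouse 1, at 49.2 RPKM, and in old-OSKM mouse 4, at 39.7 RPKM, compared with 12.2 to 26.2 RPKM in the other 11 mice. In whole tissue, fewer cells of a type and less RNA per cell cannot be told apart. The 4 factors themselves passed the test in none of the 3 comparisons, at 2 weeks after doxycycline.

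Mmp2 (Entrez 17390, chromosome 8 from 92827290 to 92853421 of GRCm38.p6, the assembly also called mm10) encodes gelatinase A, which degrades type IV collagen of basement membranes and denatured collagen. In young mice 1 to 4 its log2 RPKM was 1.19, 1.13, 1.01 and 1.69. In old mice 1 to 5 it was 0.62, 0.53, 0.35, 0.59 and 0.73, and in old-OSKM mice 1 to 4 it was 1.16, 0.91, 0.63 and 1.66. Every old mouse lay below every young mouse, while the old-OSKM mice spread from the old into the young range. The means were 1.25 ± 0.30 (SD, n = 4), 0.56 ± 0.14 (SD, n = 5) and 1.09 ± 0.44 (SD, n = 4). Mmp2 was thus lower in old than in young mice by a log2 difference of -0.69, which is 1.61-fold (standard error 0.19, 95% interval -1.11 to -0.27), with a raw p of 0.00418 and an adjusted p of 0.476 from limma, and an exact permutation p of 0.0079, the smallest that 5 against 4 mice can give. Here a gene counts as called when its fold change exceeds 1.5 and its unadjusted limma p is under 0.01. Mmp2 met both conditions. The difference was -0.54 without young mouse 4 and -0.64 without old mouse 3, and the call was lost in both cases. Between old-OSKM and old mice Mmp2 differed by 0.53 (standard error 0.19, 95% interval 0.10 to 0.95, raw p = 0.0193 and adjusted p = 0.547 from limma), under the fold required for a call, with an exact permutation p of 0.0159. This difference was 0.34 without old-OSKM mouse 4 and 0.20 without old-OSKM mice 1 and 4. Old-OSKM and young mice differed by -0.16, with a 95% interval of -0.61 to 0.28 that holds both no difference and most of the difference between old and young mice.

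Mmp14 (Entrez 17387, chromosome 14 from 54431598 to 54442456) encodes the membrane protease that activates the MMP2 precursor. Its log2 RPKM was 0.45, 0.40, 0.41 and 0.90 in the young mice, 0.50, 0.30, 0.09, 0.15 and 0.15 in the old mice, and 1.08, 0.50, 0.23 and 0.74 in the old-OSKM mice. Old mouse 1 reached the young values, and old-OSKM mice 2 and 3 lay within the range of the old ones, mouse 2 just under old mouse 1. The difference between old and young mice was -0.30 (standard error 0.17, raw p = 0.0936 and adjusted p = 1 from limma, exact permutation p = 0.0556), and for old-OSKM against old it was 0.40 (standard error 0.17, raw p = 0.0352 and adjusted p = 0.547 from limma, exact permutation p = 0.0714). Mmp14 was called in no comparison, and the differences were -0.18 without young mouse 4 and 0.25 without old-OSKM mouse 1.

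Mmp3 (Entrez 17392, chromosome 9 from 7445822 to 7455975) encodes stromelysin-1, a broad protease that also activates other metalloproteases and that inflammatory cytokines induce in fibroblasts. With Timp1 it was among the lowest of the 9 genes, at -1.38, -2.48, -2.57 and -1.98 in the young mice, -2.19, -1.34, -2.51, -0.89 and -2.53 in the old mice, and -0.99, -2.01, -1.07 and -1.13 in the old-OSKM mice. In 4 mice, 2 young and 2 old, it lay within 0.1 of its minimum. Old-OSKM values lay above the young mean in 4 of 4 mice, and the difference from young was 0.80 (standard error 0.41, raw p = 0.0734 and adjusted p = 0.706 from limma, exact permutation p = 0.0857). From old to old-OSKM mice it was 0.59 (standard error 0.39, exact permutation p = 0.198).

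Timp2 (Entrez 21858, chromosome 11 from 118301061 to 118355411) had, with Timp3, the highest levels of the 9. Its log2 RPKM was 1.67, 1.80, 1.66 and 2.63 in the young mice, 1.49, 1.67, 1.16, 1.57 and 1.32 in the old mice, and 2.23, 1.88, 1.74 and 3.17 in the old-OSKM mice. Every old-OSKM mouse lay above every old mouse, whereas old mouse 2 lay just above the lowest young mouse, young mouse 3, and below the other young mice. The means were 1.94 ± 0.47 (SD, n = 4), 1.44 ± 0.20 (SD, n = 5) and 2.25 ± 0.64 (SD, n = 4) in the same order. Against old mice, old-OSKM mice differed by 0.81, which is 1.76-fold (standard error 0.29, 95% interval 0.19 to 1.44), with a raw p of 0.0153 and an adjusted p of 0.547 from limma, so Timp2 was not called, and the exact permutation p was 0.0079, again the smallest possible. With old-OSKM mice 1 and 4 and young mouse 3 left out, the difference was 0.37, and it was 0.51 with old-OSKM mouse 4 alone left out. Between old and young mice Timp2 differed by -0.50 (standard error 0.29, raw p = 0.107 and adjusted p = 1 from limma, exact permutation p = 0.0238), and by -0.27 without young mouse 4.

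Timp3 (Entrez 21859, chromosome 10 from 86300412 to 86349505) encodes the inhibitor that stays bound to the matrix and also blocks ADAM and ADAMTS proteases. It was nearly constant in most mice, at 1.51, 1.56, 1.58 and 2.52 in the young, 1.52, 1.69, 1.33, 1.59 and 1.46 in the old and 1.68, 1.51, 1.41 and 3.53 in the old-OSKM mice. Apart from young mouse 4 and old-OSKM mouse 4, the 11 mice overlapped across all groups. Old-OSKM minus old gave 0.51 (standard error 0.39, raw p = 0.21 from limma, exact permutation p = 0.254), and 0.017 without old-OSKM mouse 4, compared with 0.63 to 0.72 without any other single old-OSKM mouse. The difference between old and young mice was -0.27 (standard error 0.39, exact permutation p = 0.27), and -0.032 without young mouse 4.

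Timp1 (Entrez 21857, X chromosome from 20870166 to 20874737) encodes a secreted inhibitor that injury and inflammation induce. Its log2 RPKM was -1.88, -2.58, -1.97 and -1.21 in the young mice, -1.42, -2.04, -2.61, -1.83 and -1.23 in the old mice, and -0.26, -1.06, -0.93 and -2.41 in the old-OSKM mice. Old-OSKM mice 1, 2 and 3 lay above all 9 control mice, but old-OSKM mouse 4, which had the most Timp2 and Timp3, lay near the bottom. Old-OSKM minus old therefore had a wide interval, 0.66 (standard error 0.42, 95% interval -0.27 to 1.59, raw p = 0.146 and adjusted p = 0.608 from limma, exact permutation p = 0.222), and was 1.08 without old-OSKM mouse 4 and 0.36 without old-OSKM mouse 1. Old and young mice differed by 0.08 (standard error 0.42, exact permutation p = 0.897).

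The 250 bases before the annotated start were at hand in RefSeq (GRCm38.p6) for 5 of the 9 genes. Shown are those of Timp2 and Timp3, the pair with the highest levels, and of Mmp3 and Timp1, the pair with the lowest and most uneven levels. Capitals mark letters of 5 motifs searched on both strands: AP-1 (TGANTCA), the GC box (GGGCGG), the TATA box (TATAAA), the CCAAT box (CCAAT) and PEA3 (AGGAAG), each printed as its reverse complement where it lies on the other strand. The Timp2 window is chr11:118355412-118355661 on the minus strand, Timp3 chr10:86300162-86300411, Mmp3 chr9:7445572-7445821 and Timp1 chrX:20869916-20870165, all on the plus strand.
Timp2: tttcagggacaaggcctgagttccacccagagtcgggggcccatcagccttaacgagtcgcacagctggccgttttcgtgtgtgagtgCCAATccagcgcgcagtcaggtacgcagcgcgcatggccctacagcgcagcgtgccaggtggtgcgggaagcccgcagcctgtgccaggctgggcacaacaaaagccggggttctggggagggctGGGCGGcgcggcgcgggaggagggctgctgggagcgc
Timp3: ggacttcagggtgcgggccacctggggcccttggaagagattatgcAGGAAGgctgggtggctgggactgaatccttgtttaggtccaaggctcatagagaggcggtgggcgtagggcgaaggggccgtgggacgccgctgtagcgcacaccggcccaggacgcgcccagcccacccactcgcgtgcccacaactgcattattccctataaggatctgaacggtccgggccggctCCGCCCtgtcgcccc
Mmp3: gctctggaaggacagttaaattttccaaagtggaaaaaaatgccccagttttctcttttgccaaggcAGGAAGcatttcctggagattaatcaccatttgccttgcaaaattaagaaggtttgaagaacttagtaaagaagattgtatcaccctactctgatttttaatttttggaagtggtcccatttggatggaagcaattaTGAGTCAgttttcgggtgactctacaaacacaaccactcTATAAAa
Timp1: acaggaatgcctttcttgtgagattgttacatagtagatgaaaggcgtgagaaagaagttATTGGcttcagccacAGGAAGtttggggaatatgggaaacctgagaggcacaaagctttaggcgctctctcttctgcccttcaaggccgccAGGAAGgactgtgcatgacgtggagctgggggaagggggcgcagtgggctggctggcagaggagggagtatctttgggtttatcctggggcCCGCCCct
The windows of Timp2 and Timp3 held 68% and 65.6% G and C, and each held a GC box, 37 bases before the start in Timp2 and 15 bases before it in Timp3. The Mmp3 window held 37.6% G and C, an AP-1 motif 46 bases before the annotated start and a TATA box 7 bases before it. Of 32851 RefSeq windows of this length, 32.7% held a GC box, 6.75% an AP-1 motif and 12.4% a TATA box. Timp1, with 54.4% G and C, held PEA3 motifs 175 and 99 bases before the start, a CCAAT box and a GC box, and 29.5% and 33.8% of all windows held a PEA3 motif and a CCAAT box. Mmp14, whose window is not printed, held GC boxes 19 and 13 bases before its start. These are matches of letters and no measurement of binding.

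Loxl1 (Entrez 16949, chromosome 9 from 58287723 to 58313212) encodes the lysyl oxidase that acts mainly on elastic fibres. Its log2 RPKM was 0.26, 0.29, -0.02 and 0.71 in the young mice, -0.17, -0.27, -0.55, 0.20 and -0.58 in the old mice, and 0.69, 0.23, 0.06 and 0.38 in the old-OSKM mice. Old mouse 4 was the single old mouse above 0, and it alone overlapped the other groups. The means were 0.31 ± 0.30 (SD, n = 4), -0.28 ± 0.32 (SD, n = 5) and 0.34 ± 0.27 (SD, n = 4) in the same order. Loxl1 was called lower in old than in young mice, by -0.58 (standard error 0.19, raw p = 0.00989 and adjusted p = 0.614 from limma, exact permutation p = 0.0317), and it passed both thresholds by the narrowest margin. It was called higher in old-OSKM than in old mice, by 0.62 or 1.53-fold (standard error 0.19, 95% interval 0.20 to 1.03, raw p = 0.00741 and adjusted p = 0.547 from limma, exact permutation p = 0.0238). Old-OSKM and young mice differed by 0.03, with a 95% interval of -0.41 to 0.47. Both calls use the same 5 old mice, and both were lost in most of the alternatives tried, including the removal of any single old mouse other than mouse 4.

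Loxl2 (Entrez 94352, chromosome 14 from 69608692 to 69695834), a lysyl oxidase that crosslinks type IV collagen, was at -0.08, -0.20, -0.67 and 0.83 in the young, -0.81, -0.23, -0.94, -0.56 and -0.55 in the old, and -0.32, -0.23, -0.79 and 0.26 in the old-OSKM mice. The groups overlapped throughout. Its difference between old and young mice was as large as that of Loxl1, -0.59, but with a standard error of 0.28 (raw p = 0.0616 and adjusted p = 0.941 from limma, exact permutation p = 0.0714), and young mouse 4 was the highest of all mice. Without young mouse 4 it was -0.30, while that of Loxl1 was -0.45. For old-OSKM against old, Loxl2 differed by 0.35 (standard error 0.28, exact permutation p = 0.167), and by 0.17 without old-OSKM mouse 4.

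Lox (Entrez 16948, chromosome 18 from 52516060 to 52529867), the founding member of the family, was at -0.98, -1.16, -1.19 and -0.54 in the young, -1.13, -1.23, -1.06, -0.63 and -0.94 in the old, and 0.11, -0.92, -0.96 and -0.46 in the old-OSKM mice. Old and young mice had nearly the same mean, with a difference of -0.03 (95% interval -0.52 to 0.46, exact permutation p = 0.841). For old-OSKM against old it was 0.44 (standard error 0.22, raw p = 0.0721 and adjusted p = 0.571 from limma, exact permutation p = 0.111). Old-OSKM mouse 1 alone was above 0, and without it this difference was 0.22.

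Across the 9 genes, 2 were called between old and young mice, Mmp2 and Loxl1, both lower in old mice, while 0.886% of all genes were called in this comparison and 0.437% were called lower. Mmp2 was the single member whose old and young values did not overlap with old lower, as was the case for 1.22% of all genes. Of the 9 differences 7 were below 0, with a median of -0.30, compared with a median of 0.0012 and 45.5% below 0 over all genes. Between old-OSKM and old mice 1 member was called, Loxl1, against 0.753% of all genes, and Timp2 was the single member without overlap, against 1.02% of all genes that were higher without overlap. All 9 differences were above 0, with a median of 0.53, compared with a median of -0.04 and 36.9% above 0 over all genes. Between old-OSKM and young mice no member was called, against 0.625% of all genes, and 7 of 9 were above 0, with a median of 0.24, compared with 38.7% above 0 over all genes. After Benjamini-Hochberg adjustment over all genes none of the 9 passed 0.05 in limma in any comparison, where 19, 1 and 10 of all genes did. At an unadjusted p under 0.05, 2, 4 and 0 members passed in the order old against young, old-OSKM against old and old-OSKM against young, when 5.52%, 8.07% and 5.07% of all genes did. The first and second comparisons share the old mice, so that a low value in those mice moves both.

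**Figure D2:**
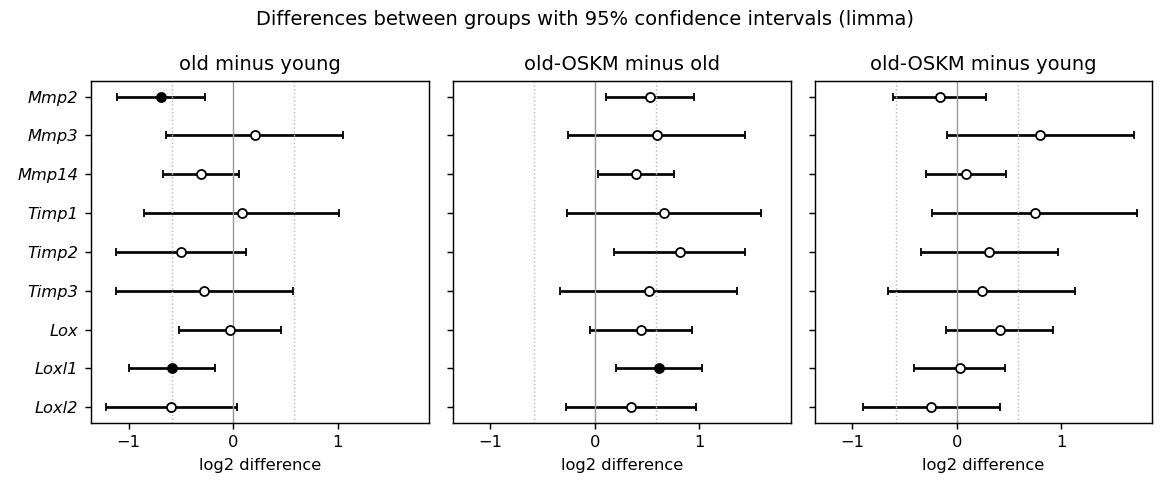
Log2 differences between groups for the 9 genes in 3 comparisons (points) with 95% confidence intervals from limma. Filled points are genes called, past the dotted lines at 1.5-fold and under 0.01 in unadjusted p: Mmp2 at -0.69 and Loxl1 at -0.58 between old and young mice, and Loxl1 at 0.62 between old-OSKM and old mice.

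Markers of fibroblasts moved with most of these genes, as did markers of several other cell types. Mmp3 and Timp1 did not share the lower means in old mice, with differences from young mice of 0.21 and 0.08. Of the 11 stellate cell and fibroblast markers, 11 had lower means in the old than the young group, with a median of -0.47 and with Col1a1 and Col3a1 called, and 11 were higher in old-OSKM than in old mice, with a median of 0.67 and with Col1a1, Col1a2 and Thy1 called. None was called among 6 mesothelial, 7 endothelial and 8 pericyte and smooth muscle markers, of which 5, 6 and 8 had lower means in old than young mice, with medians of -0.54, -0.25 and -0.21. In old-OSKM against old mice 5, 7 and 6 of them had higher means, with medians of 0.81, 0.28 and 0.28. Adipocyte and macrophage markers were lower in old than young mice for 6 of 6 and 8 of 9, with medians of -0.33 and -0.12. In old-OSKM against old mice all of these were higher, with medians of 1.23 and 0.76. Blood and duct markers were also lower in old than young mice, for 5 of 5 and 6 of 7, with medians of -0.28 and -0.07. In old-OSKM against old mice their medians were 0.07 and -0.01. B and plasma cell, T cell, islet and neutrophil markers had medians above 0 between old and young mice, at 1.05, 0.55, 0.27 and 0.07. The part of these cell types in the levels of the 9 genes was not tested. To set the 9 genes against the fibroblast markers, the mean log2 RPKM of the 7 markers other than collagens (Dcn, Lum, Pdgfra, Pdgfrb, Dpt, Thy1 and Gsn) was taken in each mouse. Over the 13 mice of the 3 groups, which were normalized together, Timp2 followed this mean most closely (r = 0.99, Spearman rho = 0.90), and r was 0.96 without the 2 mice farthest from the median of the marker mean. Timp3 (r = 0.93), Mmp2 (r = 0.87), Mmp14 (r = 0.78), Loxl2 (r = 0.78) and Loxl1 (r = 0.73) followed it less closely, with rho from 0.72 to 0.87, and without the same 2 mice r was 0.75, 0.71, 0.88, 0.58 and 0.88. Lox had an r of 0.65, Mmp3 of 0.39 and Timp1 of 0.10, which without these 2 mice were 0.67, 0.47 and 0.60, so the low r of Timp1 rested on them. The values are a description of these mice, because the groups differ in both quantities.

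**Figure D3:**
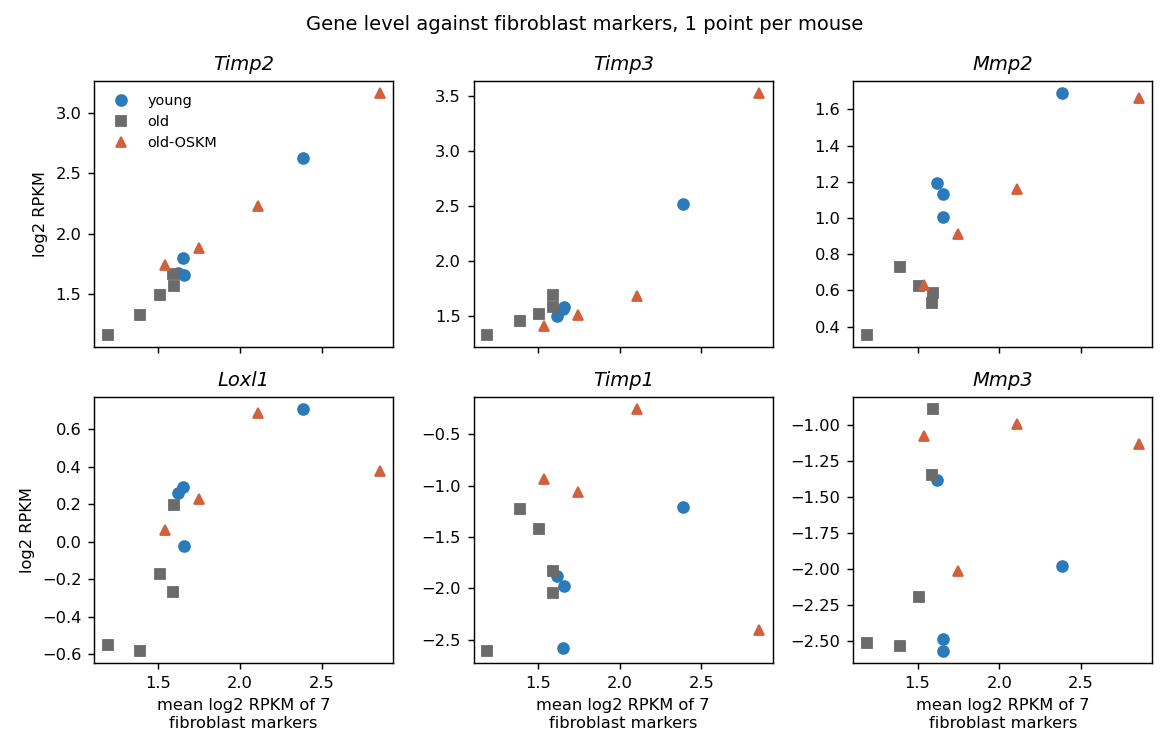
Log2 RPKM of Timp2, Timp3, Mmp2, Loxl1, Timp1 and Mmp3 (vertical axes) against the mean log2 RPKM of 7 fibroblast markers (horizontal axis), 1 point per mouse, coloured by group. Timp2 lies close to a line (r = 0.99), in the Mmp2 panel the young mice lie above the others at a like marker level, and the points of Timp1 and Mmp3 are scattered (r = 0.10 and 0.39 over all 13 mice).

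Relative to these markers, Mmp2 and Timp2 differed. The log2 ratio of Timp2 to the 7 markers was 0.06, 0.15, -0.0017 and 0.24 in the young mice, -0.02, 0.08, -0.03, -0.03 and -0.07 in the old mice, and 0.12, 0.14, 0.20 and 0.31 in the old-OSKM mice. These differences were small, but every old-OSKM mouse lay above every old mouse, as for Timp2 itself. Mmp2 and Timp2 were picked from the 9 genes, and the ratios of all the others overlapped between old-OSKM and old mice. The share of all genes without overlap in this ratio was not counted. The log2 ratio of Mmp2 to the 7 markers was -0.42, -0.52, -0.65 and -0.70 in the young mice, -0.88, -1.06, -0.83, -1.01 and -0.66 in the old mice, and -0.95, -0.84, -0.91 and -1.19 in the old-OSKM mice. All 4 old-OSKM mice and 4 of the 5 old mice thus lay below every young mouse, and old and old-OSKM mice overlapped. Relative to the collagen Col1a1 alone, the log2 ratio of Mmp2 was -0.95 to -0.37 in young, -0.55 to -0.43 in old and -1.22 to -0.69 in old-OSKM mice. Its means were -0.74, -0.50 and -0.85 in the same order, so the lower ratio in old mice depends on the markers chosen. When the 7-marker mean was added to the limma fit as a covariate, a choice made after the data were seen, Mmp2 differed by -0.42 between old and young mice (95% interval -0.59 to -0.24, adjusted p = 0.139), by 0.08 between old-OSKM and old mice (95% interval -0.11 to 0.28, adjusted p = 0.963) and by -0.33 between old-OSKM and young mice (95% interval -0.51 to -0.16, adjusted p = 0.413). These differences are under the fold required for a call. In the same fit Timp2 differed by -0.07 between old and young mice (95% interval -0.18 to 0.040) and by 0.12 for old-OSKM against old (95% interval -0.0058 to 0.24). Loxl1 differed by -0.42 (95% interval -0.81 to -0.022) and 0.35 (95% interval -0.10 to 0.79) in these comparisons. With this covariate 0 of the 9 genes were called in any of the 3 comparisons, when 0.946%, 0.445% and 0.578% of all genes were, and with all 11 markers, collagens included, 0 were called as well, when 1.02%, 0.437% and 0.638% of all genes were. With all 11 markers the difference of Mmp2 between old and young mice was -0.27 (95% interval -0.42 to -0.12).

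Ratios between the 9 genes within a mouse do not depend on a factor common to that mouse. The log2 ratio of Mmp2 to its inhibitor and partner Timp2 was -0.48, -0.67, -0.65 and -0.94 in the young mice, -0.87, -1.14, -0.81, -0.98 and -0.59 in the old mice, and -1.06, -0.97, -1.11 and -1.50 in the old-OSKM mice. Each old-OSKM mouse had less Mmp2 per Timp2 than any young mouse, and the old mice spanned both. The log2 ratio of Mmp2 to Mmp14 was 0.60 to 0.79 in young and 0.13 to 0.58 in old mice, which did not overlap, and 0.09 to 0.93 in old-OSKM mice. The log2 ratio of Loxl1 to Lox was 1.17 to 1.46 in young and 0.35 to 0.96 in old mice, again without overlap, and 0.58 to 1.15 in old-OSKM mice, all below the young. The log2 ratio of Timp3 to Timp2 was negative in all 4 young mice (-0.24 to -0.07), positive in all 5 old mice (0.02 to 0.17), and -0.54, -0.37, -0.33 and 0.36 in the old-OSKM mice. These ratios were not tested, since they were chosen from many possible pairs.

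**Figure D4:**
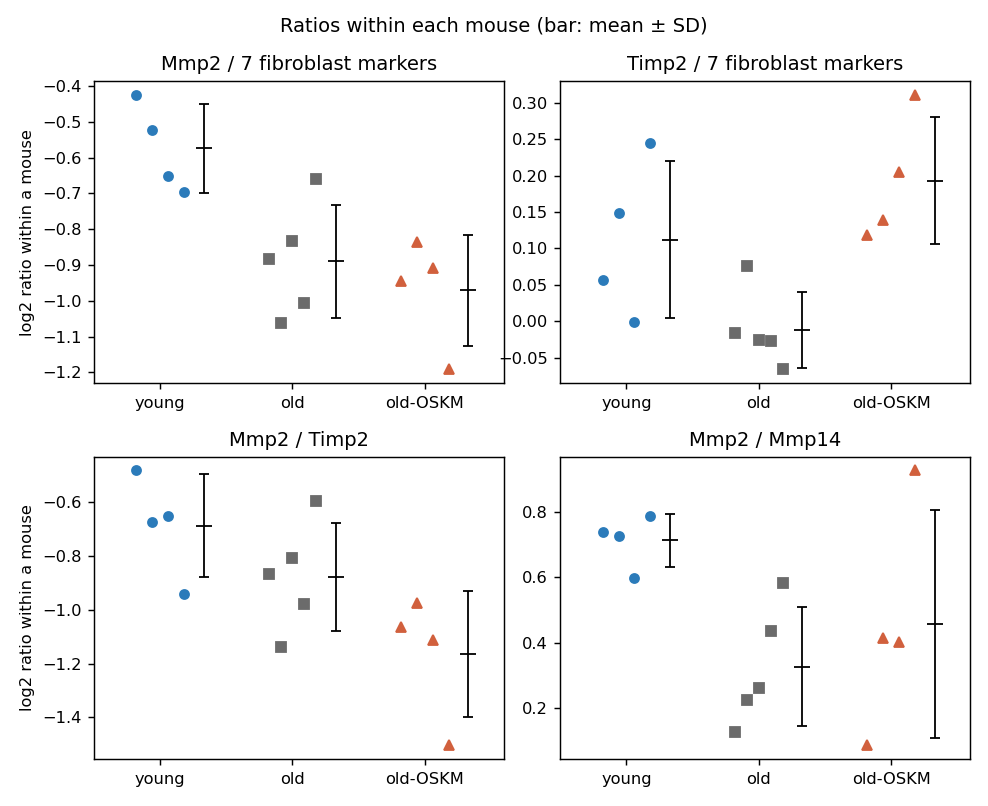
Log2 ratios within each mouse (vertical axes differ), 1 point per mouse with the group mean and SD: Mmp2 and Timp2 each against the mean of 7 fibroblast markers, and Mmp2 against Timp2 and Mmp14. The ratio of Mmp2 to the markers is -0.70 to -0.42 in young and -1.19 to -0.84 in old-OSKM mice, and that of Mmp2 to Mmp14 is 0.60 to 0.79 in young and 0.13 to 0.58 in old mice.

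The genes most like each member were sought among the 8410 genes with a mean above 0, by Pearson's r over the 13 mice. Mmp2 was most like Col15a1 (r = 0.98), Sparc (r = 0.97) and Lama4 (r = 0.97), a basement membrane collagen, a collagen-binding matrix protein and a laminin chain, and r was 0.92 to 0.96 without the 2 mice farthest from the median of Mmp2. Timp2 was most like Dpt, Rbms3 and Cd34 (each r = 0.98), of which Dpt is among the fibroblast markers. Mmp14 was most like Adam15 (r = 0.95), Thy1 (r = 0.93) and Lims1 (r = 0.92). Loxl1 was most like Cd93 (r = 0.93), Ehf (r = 0.92) and Fn1 (r = 0.91). For Timp3 the genes were Fmo2 and Atp1b1 (each r = 0.99) and Abca8a (r = 0.98), but these fell to 0.77, 0.75 and 0.50 without the 2 farthest mice. The other 4 members had means below 0 and were not searched.

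Other genes of matrix turnover were read from 7 lists with 100 genes in the table. Of 16 matrix proteins that the members cut or crosslink, all 16 had lower means in old than in young mice, with a median of -0.68, and all 16 had higher means in old-OSKM than in old mice, with a median of 0.53. Called lower in old mice were 5 of the 16: Col3a1 (-1.04), Fn1 (-0.95), Col1a1 (-0.93), Col5a1 (-0.84) and Col5a2 (-0.76). Called higher in old-OSKM than in old mice were 4: Fn1 (0.95), Postn (0.92), Col1a2 (0.89) and Col1a1 (0.88), when 0.582% of all genes were called higher. None of them passed an adjusted p of 0.05 in limma, and 3 of these collagens are also on the fibroblast list. Fn1, fibronectin, was at 2.14, 2.08, 1.99 and 2.80 in the young, 1.37, 1.23, 0.70, 1.87 and 1.35 in the old, and 2.43, 1.98, 1.82 and 2.81 in the old-OSKM mice, and old mouse 4 alone reached an old-OSKM value.

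The enzymes of the other lists moved less. Of 18 other metalloproteases 9 had lower means in old than in young mice, with a median of 0.02, and 13 had higher means in old-OSKM than in old mice, with a median of 0.25. Mmp16, a membrane metalloprotease that like Mmp14 can activate the MMP2 precursor, was called lower in old mice, at -4.62 to -3.48 against -3.25 to -2.74 in young mice (difference -0.98, adjusted p = 0.585 from limma), at very low levels. Mmp7, matrilysin, an epithelial protease, was called higher in old-OSKM mice, which had 0.76, -1.01, -1.69 and 0.24, compared with -2.92 to -1.41 in old mice (difference 1.60, adjusted p = 0.547 from limma), with old-OSKM mouse 3 within the old range. The list of 8 other inhibitors also held Pcolce and Serpinh1, which serve procollagen processing and folding and are not protease inhibitors. Of these 8 genes all 8 had higher means in old-OSKM than in old mice, with a median of 0.46 and none called. Among them Timp4 was at -1.58 to -1.32 in old-OSKM mice, above all old mice (-2.39 to -1.68) and all young mice (-2.69 to -1.81), and was called against young mice (difference 0.81, adjusted p = 0.676 from limma). Tfpi2, an inhibitor of serine proteases in the matrix, was called lower in old than in young mice (difference -1.02, adjusted p = 0.591 from limma), with old mouse 1 within the young range.

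No gene was called among 14 other crosslinking and collagen-modifying enzymes, whose median was -0.09 between old and young and 0.08 between old-OSKM and old mice. Tgm2, a transglutaminase that crosslinks matrix proteins without lysyl oxidation, was at 1.43 to 2.02 in old-OSKM mice, above the old mice at 1.23 to 1.40, with a difference of 0.38 that was under the fold for a call (adjusted p = 0.547 from limma). No gene was called among 16 ADAMTS and procollagen proteases or among 10 genes of the plasminogen system and other proteases, with medians of -0.19 and -0.15 between old and young and 0.16 and 0.37 between old-OSKM and old mice. Of 18 regulators, which include the TGF-beta, AP-1 and cytokine genes that act on the members, 16 had higher means in old-OSKM than in old mice, with a median of 0.33, and 1 was called. This was Tnf, at -1.78, -2.85, -2.34 and -2.14 in the old-OSKM mice and at -3.59 to -3.54 in all 5 old mice, a nearly constant low value from which no fold is drawn here.

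**Figure D5:**
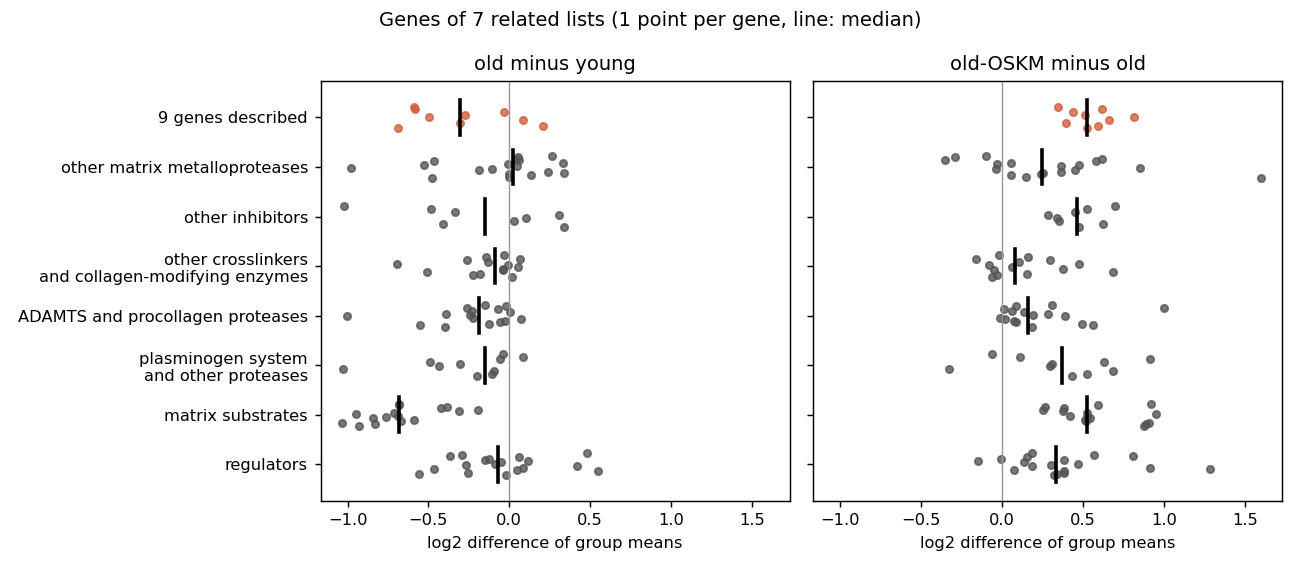
Log2 differences of group means (horizontal axes) for the 9 genes described and for the genes of 7 related lists, 1 point per gene with the median of each list as a line, between old and young mice (left) and between old-OSKM and old mice (right). The 16 matrix substrates lie below 0 on the left, with a median of -0.68, and above 0 on the right, with a median of 0.53.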

How the data were processed

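RNA sequencing was done on rRNA-depleted pancreas RNA of 4 young, 5 old and 4 old-OSKM mice, 1 library per mouse. The authors aligned reads with STAR 2.3.0e to mm10, estimated RPKM of isoforms with Casper, added these up within each Entrez gene and quantile normalized their log2. The deposited log2 RPKM values of 23366 genes were used without a pseudocount or filter. The table gives no counts or read totals, so the depth and counting error of each mouse are unknown, and whether the values hold the correction by total reads that the methods describe was not tested. Symbols were taken from RefSeq (GRCm38.p6) for 23273 genes.

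The 3 groups were fitted together with limma 3.58.1 in R 4.3.3, with no covariate, and p-values were adjusted by Benjamini-Hochberg over all genes. Single genes were also tested by exact permutation of the mice, two-sided. On simulated data of 23366 genes for old against young mice, 85 of 100 genes changed by 1 on the log2 scale were called. Of 100 genes changed by 2, 99 were called. There were 91 false calls, while the measured data gave 207 calls in this comparison. The largest difference of a member between old and young mice was -0.69, for Mmp2, which is smaller than either simulated size. How often changes of the members' size are called was therefore not tested. Named beside the members are the genes of each related list that were called or had the smallest p, not all of which are discussed. The members and lists were chosen with earlier results of these data known. Mice are numbered in accession order, as the labels give no replicate numbers. Alternatives covered scaling, pseudocounts of 1 and 0.1, a filter on the mean, the run of sample identifiers, the 2 groups alone, robust eBayes with a trend, and each mouse left out. Those with a fibroblast covariate or with several libraries left out were chosen after seeing the data. Plots used matplotlib 3.10.9 in Python 3.11.15.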

Additional observations from a re-analysis of the deposited data

Results flagged for a closer look

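Of 27 sets of values, 1 for each gene and group, 5 held a mouse far from the rest of its group by Dixon's test, which flags about 1 in 20 by chance. Young mouse 4 was the highest of the young mice in Timp3, at 2.52 log2 RPKM against 1.51 to 1.58 in the others, in Timp2, at 2.63 against 1.66 to 1.80, and in Mmp14, at 0.90 against 0.40 to 0.45. Old-OSKM mouse 4 was the highest of its group in Timp3, at 3.53 against 1.41 to 1.68. The same 2 mice had the highest sums of fibroblast markers, 89.6 and 125.4 RPKM, and the part of these cells in the values was not tested. Old-OSKM mouse 2 was the lowest of its group in Mmp3, at -2.01 against -1.13 to -0.99.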

How the results depend on the processing

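Of the 9 genes, 2 were called between old and young mice; this became 0 with a pseudocount of 1, with the run of sample identifiers as covariate and with either fibroblast covariate, and 1 with a pseudocount of 0.1, with the 2 groups alone or with trend and robust eBayes. It was 0 to 2 with mice left out, and 0 without young mouse 4, without old mouse 3, or without young mouse 4 and old-OSKM mice 1 and 4. Mmp2 kept its direction in all 25 alternatives (-0.77 to -0.27), but several of these could not move it. Leaving out an old-OSKM mouse, fitting the 2 groups alone, filtering on the mean or changing eBayes left it at -0.69 by construction. Between old-OSKM and old mice the count of 1 became 0 with a pseudocount of 1 or 0.1, with the identifier run and with either fibroblast covariate, 2 among genes with a mean above 0, and 0 to 3 with mice left out. It was 0 without any one of young mice 1 and 2, old mice 1, 2, 3 and 5 and old-OSKM mice 1, 2 and 4, 2 without young mouse 4 and 3 without old-OSKM mouse 3. Between old-OSKM and young mice it stayed 0 in the alternatives run. Rescaling changed no count, but it could hardly do so, since the values were already quantile normalized (largest spread of sorted values between mice 0.0116). Signs turned for 39 of 663 values of single genes, and part of the 663 could not turn, because the setting left both group means unchanged. With all fibroblast markers as covariate, Timp2, Timp3 and Lox turned to 0.13, 0.52 and 0.28 between old and young mice, Timp3 and Loxl2 to -0.47 and -0.33 between old-OSKM and old mice, and Loxl1 to -0.032 between old-OSKM and young mice. With the 7 markers, Timp1, Timp3 and Lox turned to -0.020, 0.28 and 0.16, Timp3 and Loxl2 to -0.39 and -0.22, and Mmp14, Timp3 and Loxl1 to -0.010, -0.11 and -0.073 in the same order of comparisons. With the identifier run, Lox turned to 0.015 between old and young mice and Loxl1 to -0.038 between old-OSKM and young mice. Without old-OSKM mice 1 and 4, Timp3 was at -0.056 between old-OSKM and old mice. Without these and young mouse 4, old-OSKM minus young turned to -0.060, -0.088 and -0.031 for Mmp14, Timp3 and Loxl1, and without these and young mouse 3 to -0.22, -0.22, -0.40, -0.044 and -0.27 for Mmp14, Timp2, Timp3, Lox and Loxl1. With single mice left out, old minus young ranged from -0.042 to 0.45 for Mmp3, -0.14 to 0.32 for Timp1 and -0.12 to 0.11 for Lox, and old-OSKM minus young from -0.055 to 0.23 for Mmp14, -0.26 to 0.48 for Timp3, -0.086 to 0.16 for Loxl1 and -0.46 to 0.043 for Loxl2. The cause was not tested. No paired analysis was possible because the labels give no replicate numbers. Depth is unknown, so no limit of detection can be given.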

Other observations

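Of 9 macrophage markers, 9 had higher means in old-OSKM than in old mice, with a median difference of 0.76 and C1qc called, and 9 had higher means in old-OSKM than in young mice, with a median of 0.70. Of 6 adipocyte markers, 6 had higher means in old-OSKM than in old mice, with a median of 1.23 and Plin1 called. Of 6 neutrophil markers none was called in any comparison, and their medians were 0.07, 0.10 and 0.17 for old against young, old-OSKM against old and old-OSKM against young mice. The macrophage and adipocyte sums were far higher in old-OSKM mice 1 and 4 than in old-OSKM mice 2 and 3, at 49.2 and 39.7 RPKM against 18.2 and 19.5 RPKM for macrophage markers and 11.96 and 13.8 RPKM against 3.51 and 3.47 RPKM for adipocyte markers. Old-OSKM mouse 1 also had the highest Timp1, Lox, Mmp14 and Loxl1 of its group, and the part of these cells in those levels was not tested.

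Of 6 markers of B and plasma cells, 6 had higher means in old than in young mice, with a median difference of 1.05 and Jchain called, and 6 had higher means in old-OSKM than in young mice, with a median of 1.78 and Ms4a1, Cd79b and Jchain called. Islet markers had lower means in old-OSKM than in old mice for 8 of 8 genes, with a median of -0.51 and none called, while old-OSKM mouse 4 had the highest islet sum of all mice, 506.7 RPKM. The plasminogen gene Plg was at 1.13 log2 RPKM in young mouse 3 and at -2.66 or less in the other 12 mice.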
